A study of Mus musculus with 38 samples.

Results

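The genes that encode the proteins of the mitochondrial ribosome were followed in brown adipose tissue of mice on 5 diets. They were chosen by name alone: every gene name on the array that starts with Mrpl or Mrps followed by a digit. This gave 75 genes of 29411 gene names, 46 named Mrpl and 29 named Mrps, and all 75 were among the 21625 genes bright enough to be tested. The tissue came from C57BL/6J mice that went on their diets after weaning at 3 to 4 weeks of age. LFC mice received a low fat control diet with 10% of calories from fat, and HFC mice a high fat, high sucrose diet with 60% of calories from fat. HF5, HF20 and HF75 mice received the same high fat diet together with 5, 20 or 75 micrograms of Kal-1, an aqueous formulation of plants used in traditional medicine. LFC and HFC were sampled on Days 6, 10 and 14 and at Weeks 0, 3, 6, 9, 12, 15 and 18, which gave 10 arrays each, and the 3 dose groups at Weeks 3 to 18, which gave 6 arrays each. Each group had 1 array per time point, and its time points serve as replicates. The sources used here do not say whether an array holds the RNA of 1 animal or of a pool of the 5 animals killed per group and interval. The series description speaks of 3 biological replicates, and some sample titles carry a tag R2 or R3 that the labels do not explain, so the p-values measure the spread between arrays only. No group received Kal-1 on the low fat diet.

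Mitochondria carry a small genome of their own, and the few proteins it encodes are core subunits of the respiratory chain and of ATP synthase. These proteins are made inside the organelle by the mitochondrial ribosome. Its RNA comes from the mitochondrial genome, but all its proteins are encoded in the nucleus, made in the cytosol and imported. Brown adipocytes are rich in mitochondria, which burn fuel to make heat through the uncoupling protein Ucp1. By known role, 48 members belong to the large subunit, where peptide bonds form, and 26 to the small subunit, which reads the messenger RNA. Mrps18a and Mrps30 count with the large subunit in spite of their names. Mrps36 belongs to neither, since its protein is now known as a subunit of the 2-oxoglutarate dehydrogenase complex. Of the large subunit proteins 30 have a counterpart in bacteria and 18 are specific to mitochondria. The small subunit has 16 of the first kind and 10 of the second.

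The 75 genes lie on 17 chromosomes, with 10 of them on chromosome 11, and share no single locus. A window of 300 bases, from 250 bases before the gene start to 50 after it, was at hand in RefSeq (GRCm38.p6) for 66 members. These windows were searched on both strands for 3 motifs of factors known for their sites in nuclear genes of mitochondrial proteins: GCGCANGCG for NRF1, CCGGAAGTG for factors of the ETS family such as GABP, and AAGATGGCG for YY1. The NRF1 motif was in 15 of the 66 (22.7%), against 7.03% of 27025 genes with a window. The YY1 motif was in 7 (10.6%, against 1.64%) and the ETS motif in 4 (6.1%, against 2.25%). At least 1 of the 3 was in 24 members (36.4%, against 10.17%). The 120 bases before the gene start are shown for 6 members. Among members that hold a motif there and passed the comparison of HF75 with HF20 described further on, 5 of them had the largest fall. The sixth, Mrpl52, has no motif there and had the smallest difference of all members in that comparison. All 6 are on the plus strand, at chr1:37890357-37890476 (Mrpl30), chr11:120484517-120484636 (Mrpl12), chr3:94443216-94443335 (Mrpl9), chr7:78783011-78783130 (Mrps11), chr11:58171544-58171663 (Mrpl22) and chr14:54426789-54426908 (Mrpl52). Capitals mark the motif, which is the YY1 motif in Mrps11 and the NRF1 motif in the other 4 that hold one.
Mrpl30: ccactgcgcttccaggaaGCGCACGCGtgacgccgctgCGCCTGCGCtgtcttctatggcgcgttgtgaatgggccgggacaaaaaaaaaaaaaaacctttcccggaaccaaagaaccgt
Mrpl12: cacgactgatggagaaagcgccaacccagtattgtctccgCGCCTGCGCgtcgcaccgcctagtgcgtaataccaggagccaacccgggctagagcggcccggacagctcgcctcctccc
Mrpl9: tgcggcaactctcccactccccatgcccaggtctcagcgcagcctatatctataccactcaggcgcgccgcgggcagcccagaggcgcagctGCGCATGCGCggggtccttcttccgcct
Mrps11: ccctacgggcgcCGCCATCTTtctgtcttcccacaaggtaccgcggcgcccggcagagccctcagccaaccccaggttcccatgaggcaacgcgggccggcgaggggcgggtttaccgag
Mrpl22: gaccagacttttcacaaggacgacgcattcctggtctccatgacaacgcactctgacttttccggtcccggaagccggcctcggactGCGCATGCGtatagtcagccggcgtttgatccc
Mrpl52: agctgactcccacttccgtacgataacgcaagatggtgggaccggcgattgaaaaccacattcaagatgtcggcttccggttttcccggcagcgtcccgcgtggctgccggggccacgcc
The motif starts 102 and 82 bases before the gene start in Mrpl30, 80 in Mrpl12, 108 in Mrps11 and 33 in Mrpl22. In Mrpl9 it matches on both strands, 28 and 27 bases before the start, in 1 run of capitals. Among the members that passed the test for HF75 against HF20, 20 of 48 with a window held at least 1 motif, and among the others 4 of 18. The members with the lowest estimates of all, Mrpl2 (-2.52), Mrpl34 (-2.49), Mrps23 (-2.44) and Mrpl37 (-2.35), had no motif in the 120 bases. The sequences shown thus do not represent the largest falls. A match describes these letters only and was not tested as a binding site.

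Before any comparison, 2 features of the arrays need stating, because both bear on the members. First, the arrays fell into bright and dim ones. The 75th percentile of the processed signal of an array was over 600 intensity units on 11 arrays (up to 1209) and 35.1 to 430 on the other 27. The bright arrays were LFC at Weeks 0, 3, 9 and 12, HFC on Day 10 and at Week 3, HF20 at Weeks 3, 6, 12 and 15, and HF75 at Week 3. Of the 10 arrays with R2 or R3 in the title 8 were bright, and of the other 28 only 3 were. Second, the array labelled HF75 Week 3 went against its tissue label. On it Ucp1 stood at -3.17 on the scale used throughout, the log2 signal minus the 75th percentile of the same array, against 3.30 to 8.48 on the other 37. Cidea, a lipid droplet protein abundant in brown fat, stood at -1.87 (5.49 to 8.69 on the others), and the cytochrome oxidase subunits Cox8b and Cox7a1 at -2.10 and -0.42 (3.95 to 7.98 and 4.33 to 8.23). The summed signal of 9 brown adipocyte markers, in log2, was 3.34 there and 6.97 to 10.3 elsewhere, while Prdm16, Adrb3 and Ebf2 were within the range of the other arrays. The summed signal of 8 macrophage markers was the highest of all, 4.71 against 1.59 to 3.84. The median of 7 white adipocyte markers was also the highest (1.66), though their summed signal (5.25) was within the range of the other arrays. The summed signal of the 4 erythroid markers that were never saturated was the lowest, -0.22 against 0.32 to 7.10. Counts of members and of list genes that passed are therefore given with and without this array.

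The members were well expressed on every array. Their median stood between 0.78 and 3.43 above the 75th percentile of its array, above 69.4% to 88.1% of all genes. Of the 75, 73 were well above background on all 38 arrays. Mrps11, which sits in the platform of the small subunit, was so on 37, and Mrps18b, one of the 3 mammalian relatives of the bacterial protein S18, on 29. Only Mrpl28 was saturated on any array, on LFC at Weeks 0 and 9. For 7 members a value was missing on 1 or 2 arrays because its spot was an outlier, 8 values in all, so the fits for these genes used fewer arrays: Mrpl34 lacks 2 values and Mrpl17, Mrpl21, Mrpl36, Mrpl54, Mrps12 and Mrps35 lack 1 each.

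The level of the members differed between the 2 brightness classes, but did not rise steadily with brightness. On the 10 bright arrays other than HF75 Week 3 the median over members was 2.75 to 3.43, and on the 27 dim arrays it was 1.05 to 2.44, so the classes did not overlap. Among the dim arrays, HF75 Week 9 (75th percentile 35.1) had 1.39, HF5 Week 18 (35.8) had 2.44 and HFC Week 0 (430) had 1.42. The brightest array, LFC Week 0 (1209), had 3.09. On the bright array labelled HF75 Week 3 it was 0.78, the lowest of all 38. In all 75 members the median of the 10 bright arrays was above that of the dim arrays, by 0.36 (Mrpl52) to 2.76 (Mrpl34) with a median of 1.77. In 41 members every one of the 10 bright arrays was above every dim array, which held for 6.78% of all genes tested. The array labelled HF75 Week 3 was below the dim median in 71 members and was the lowest of all 38 arrays in 26.

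**Figure D1:**
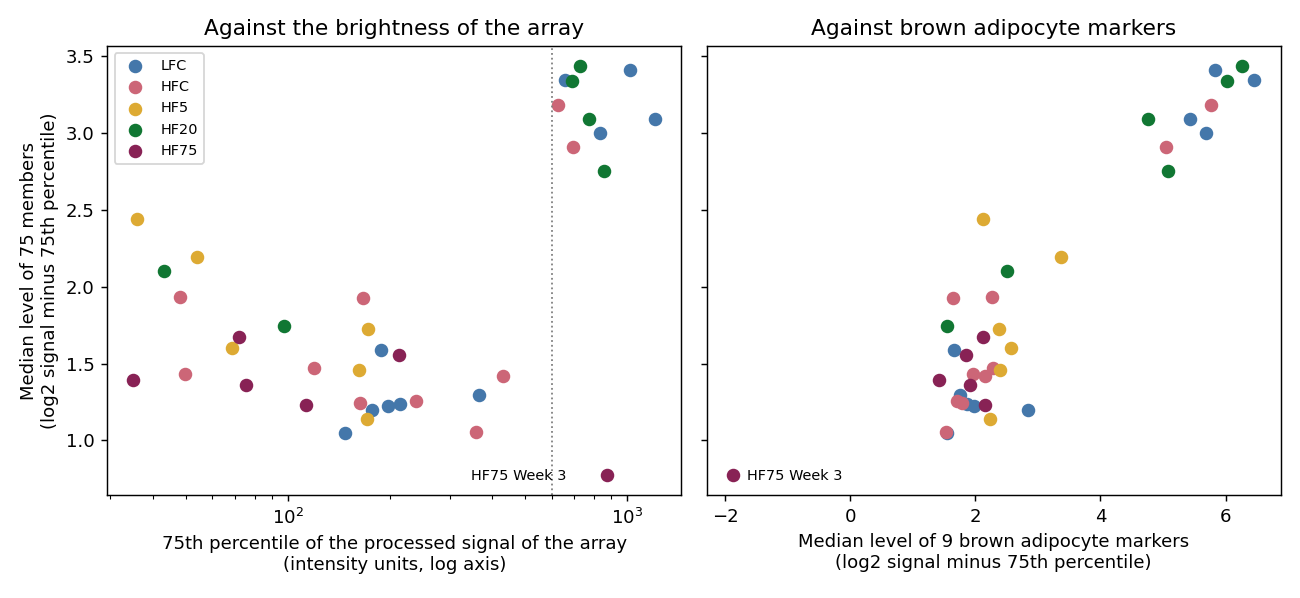
Median level of the 75 members on each array (log2 signal minus the array's 75th percentile) against the 75th percentile of the array in intensity units, on a log axis, with a point for each of the 38 arrays coloured by group and a dotted line at 600; the right panel sets the same level against the median of 9 brown adipocyte markers. The 10 bright arrays sit at 2.75 to 3.43 and the 27 dim arrays at 1.05 to 2.44, while the bright array labelled HF75 Week 3 is at 0.78 and has the lowest brown marker median (-1.87).

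Other cell type markers moved with brightness too. The summed signal of 7 white adipocyte markers was 5.81 to 7.06 on the 10 bright arrays and 1.95 to 5.45 on the dim ones, with Adipoq saturated on 10 arrays. Among the 6 erythroid markers, the globin genes Hba-a1 and Hbb-b1 were saturated on 29 and 33 arrays, which fixes their place relative to the 75th percentile. The summed signal of the other 4 overlapped, 0.32 to 2.32 on the bright arrays and 1.62 to 7.10 on the dim ones. The summed brown markers overlapped, with at most 8.94 on the bright arrays against 6.97 to 10.3 on the dim ones, and Ucp1, Cidea, Cox8b and Cox7a1 were saturated on 8 to 10 arrays. The median of the same 9 markers, which takes the middle gene of each array, did not overlap. It was 4.75 to 6.46 on the bright arrays, 1.42 to 3.37 on the dim ones and -1.87 on HF75 Week 3. The bounds 4.75 and 3.37 were also the lowest bright and highest dim values of Adrb3, a gene saturated on 3 arrays. Taken singly, Adrb3 and Ebf2 did not overlap between the classes. Ucp1, Cidea, Prdm16, Cox8b, Elovl3, Dio2 and Cox7a1 did. Saturation caps the signal of Ucp1, Cidea, Cox8b and Cox7a1, so their overlap cannot show whether the gap holds for them. Prdm16, Elovl3 and Dio2 were saturated on no array, and for these the gap in the median does not hold. The summed signals of 12 muscle, 8 macrophage and 9 lymphocyte markers also overlapped. The part of cell make-up and of brightness in the results that follow was not tested beyond the fits named. In a tissue sample, a smaller number of cells of a type and less RNA per cell cannot be told apart.

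Members moved together from array to array. The correlation of a member with the median of the other 74 over the 38 arrays was 0.56 to 0.99 with a median of 0.94, and over 0.8 in 67 members. Over the 27 dim arrays alone it was 0.12 to 0.95 with a median of 0.77, and over 0.8 in 32. These arrays share depth and scaling, and the correlations are given as a description. Mrps30 was the member most like the rest (0.99), and Mrpl52, a mitochondria-specific protein of the large subunit, the least like it (0.56). Mrpl46 (0.68) and Mrps27 (0.71), which are also specific to mitochondria, were next.

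The first comparison asks what the high fat diet did to the members over the whole course, HFC against LFC with the time point as a block. No member of 75 passed the test (limma, Benjamini-Hochberg adjustment over all 21625 genes, threshold 0.05), none did at an unadjusted p under 0.05, and 0% of all genes passed. The median difference was -0.27, with 70 members lower and 5 higher in HFC, against 0.08 over all genes. This direction turned with brightness in the fit: with the class as a covariate 56 were higher and 19 lower (median 0.08), and with log2 of the 75th percentile 66 were higher and 9 lower (0.17). In time order from Day 6 to Week 18, the median over members on LFC was 1.59, 1.24, 1.30, 3.09, 3.34, 1.20, 3.41, 3.00, 1.22 and 1.05. On HFC it was 1.92, 3.18, 1.05, 1.42, 2.91, 1.24, 1.94, 1.47, 1.26 and 1.43 at the same times. Both groups thus held a few high arrays, all of them bright, and the rest lay close together. At the 6 time points where both arrays were of the same brightness class, HFC minus LFC was -0.33 to 0.47, and at the other 4 it was -1.80 to 1.91.

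**Figure D2:**
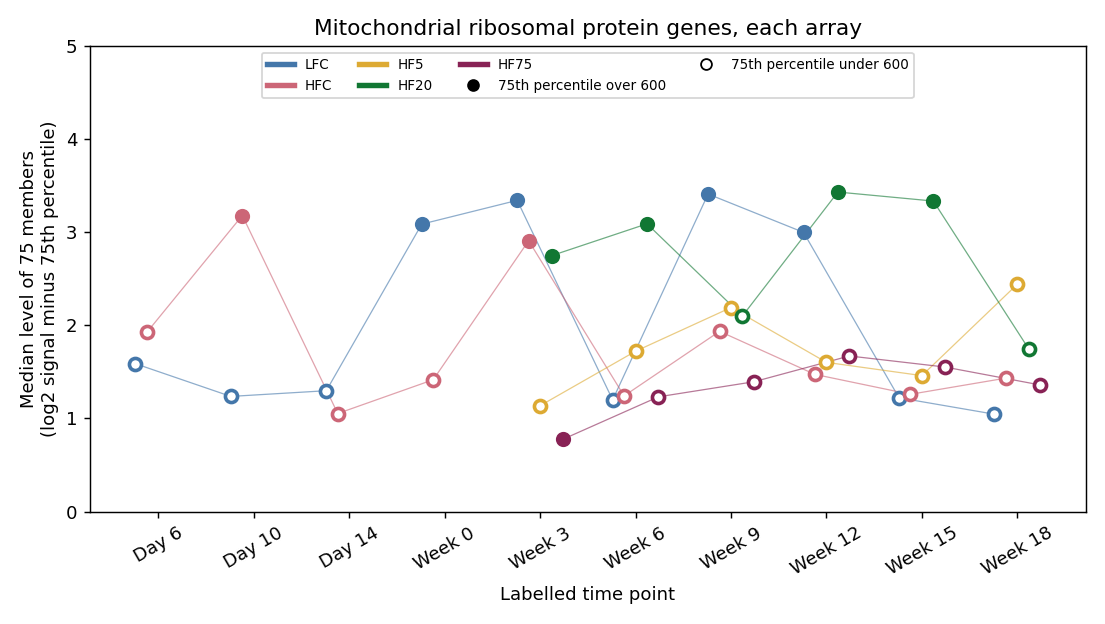
Median level of the 75 members (log2 signal minus the array's 75th percentile) at each labelled time point, with 1 point per array and a line per group. Filled points are arrays with a 75th percentile over 600 intensity units and open points the others, and the filled points lie at 2.75 or above except that of HF75 at Week 3 (0.78).

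The member with the lowest HFC against LFC estimate was Mrpl34, a short protein of the large subunit with a bacterial counterpart. Its difference was -0.98 (SE 0.44, adjusted p = 0.655). On LFC it ran from 1.29 to 5.19 and on HFC from 1.27 to 4.56, so the groups overlapped almost fully. Mrpl17 (-0.58) and Mrpl36 (-0.56) were next. Mrpl34, Mrpl17 and Mrpl36 have no value on HFC Day 10, where the median HFC minus LFC was highest (1.91). Their estimates thus leave out that time point, and without Day 10 the median over members was -0.50. The highest estimates were those of Mrps18b (0.31), Mrpl46 (0.20) and Mrps27 (0.18). On Weeks 3 to 18 alone the median was -0.46, no member passed, none did at an unadjusted p under 0.05, and 0.00925% of all genes passed. Here too the direction turned: on the dim arrays alone 69 of 75 were higher in HFC (median 0.25), and with brightness class as a covariate 45 were (0.05, or 0.13 with 65 higher when HF75 Week 3 was also left out).

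Time on the diet was taken as days over the 20 LFC and HFC arrays, with diet in the model. No member passed, while 1.14% of all genes did. The median slope was -0.39 per 100 days against 0.05 over all genes. Mrpl37, a mitochondria-specific protein of the large subunit, had the lowest slope (-1.22 per 100 days, SE 0.46, adjusted p = 0.137). It was the only member at an unadjusted p under 0.05, which 20.9% of all genes were. Its values on LFC were -0.19, -0.42 and -0.10 on Days 6, 10 and 14, 1.39, 1.13, -1.54, 1.23 and 0.58 at Weeks 0, 3, 6, 9 and 12, and -1.58 and -1.40 at Weeks 15 and 18. The last 2 time points were among its lowest, and all of its values over 0.5 on LFC came from bright arrays. The change of the diet difference with days had a median of -0.33 per 100 days, with no member past the test, none at an unadjusted p under 0.05, and 0% of all genes called.

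The dose groups were compared with HFC and with each other over Weeks 3 to 18. The median over members on HF5 was 1.14, 1.72, 2.19, 1.60, 1.46 and 2.44 at Weeks 3, 6, 9, 12, 15 and 18. On HF20 it was 2.75, 3.09, 2.10, 3.43, 3.33 and 1.75, and on HF75 it was 0.78, 1.23, 1.39, 1.67, 1.55 and 1.36. All 6 HF75 arrays were below all 6 HF20 arrays, and HF5 lay across both. As mean ± SD over 6 arrays, HF20 stood at 2.74 ± 0.69, LFC at 2.20 ± 1.16, HF5 at 1.76 ± 0.48, HFC at 1.71 ± 0.64 and HF75 at 1.33 ± 0.31. Neighbours in this order differed by less than the larger of their SDs. HF20 had the highest group mean in 74 members and HF75 the lowest in 69. Of the 6 arrays, 4 were bright in HF20, 3 in LFC, 1 each in HFC and HF75 and none in HF5.

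Against HFC no dose moved a member past the test, and 0% of all genes passed in each of the 3 comparisons. For HF5 the median difference was -0.03, with 1 member, Mrps18b (-1.53, SE 0.59, adjusted p = 0.829), at an unadjusted p under 0.05, which 5.40% of all genes were. Mrps18b was not well above background on 1 of 6 HFC, 2 of 6 HF5, 2 of 6 HF20 and 3 of 6 HF75 arrays, so its estimates for the doses rest in part on values at background. At Week 3, where the HFC array was bright and the HF5 array dim, HF5 minus HFC was -1.86, and at the 5 other weeks, with both arrays dim, it was 0.10 to 0.81. On the dim arrays alone the median was 0.35 with 67 of 75 higher and 11 at an unadjusted p under 0.05, and with brightness class as a covariate it was 0.21 with 64 higher. For HF20 the median was 1.03, all 75 members were higher, and 56 were at an unadjusted p under 0.05, which 32.7% of all genes were. The highest estimates were those of Mrpl34 (1.57), Mrps23 (1.53) and Mrpl3 (1.47), and the smallest adjusted p of a member was 0.122. At Weeks 3, 9 and 18, where the HF20 and HFC arrays were of the same brightness class, the median HF20 minus HFC was -0.18, 0.14 and 0.36. At Weeks 6, 12 and 15, where HF20 was bright and HFC dim, it was 1.68, 1.97 and 2.31. For HF75 the median was -0.41 and 6 members were at an unadjusted p under 0.05, which 9.31% of all genes were. Mrps18b (-1.66), Mrpl46 (-1.26) and Mrpl9 (-1.12) had the lowest estimates. Without the array labelled HF75 Week 3 the median was -0.23 with 2 members at an unadjusted p under 0.05, and again no member passed.

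**Figure D3:**
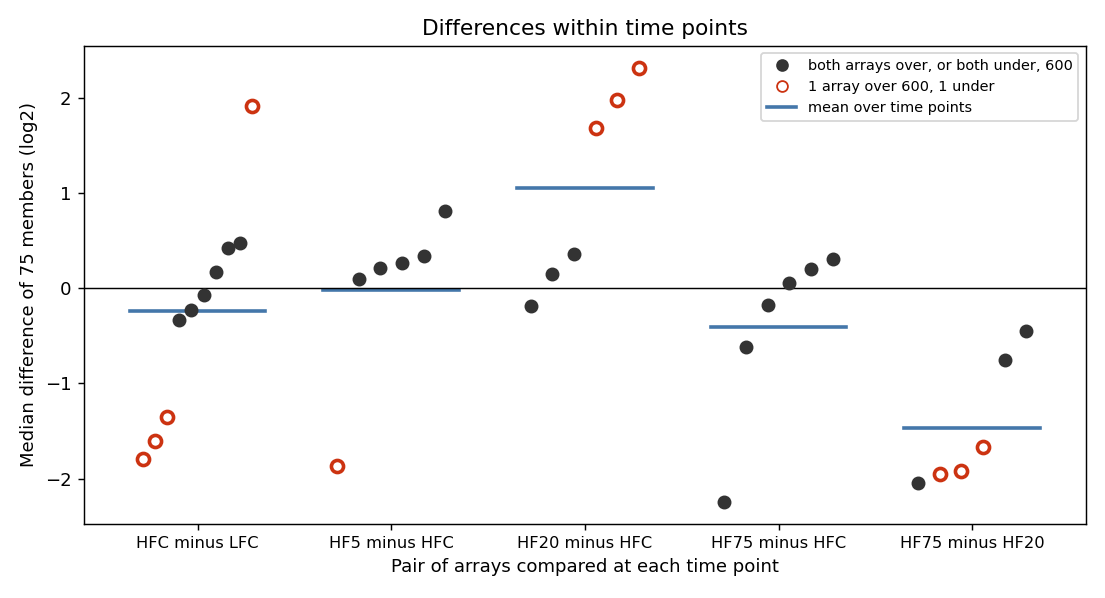
Median over the 75 members of the difference between the arrays of a time point, in log2 units, for each pair of groups, with 1 point per time point. Filled points are time points where both arrays were of the same brightness class, open points those where they were not, and lines are means over time points. For HFC minus LFC the filled points lie between -0.33 and 0.47 and the open ones between -1.80 and 1.91.

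HF20 was higher than HF5 in all 75 members with a median of 1.01. No member passed (smallest adjusted p 0.065), 52 were at an unadjusted p under 0.05, which 36.2% of all genes were, and 0% of all genes passed. All HF5 arrays were dim, so this comparison has bright arrays on 1 side alone. At Weeks 9 and 18, where both arrays were dim, HF20 was the lower, with medians of -0.13 (52 of 75 lower) and -0.60 (66 of 75 lower). On the dim arrays alone the median was -0.09 with 49 lower. Next to Mrps18b (2.03), Mrps23 (1.85) and Mrpl2 (1.79) had the highest estimates in the comparison of all arrays and Mrpl52 (0.01) the lowest. HF75 against HF5 had a median of -0.41, with no member past the test or at an unadjusted p under 0.05, and 0% of all genes called. Without the array labelled HF75 Week 3 the median was -0.20.

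The members fell in HF75 relative to HF20. Of 75 members, 56 (74.7%) passed the test, all of them lower in HF75, where 26.3% of all genes passed and 12.7% of all genes passed and were lower. All 75 estimates were below 0, from -2.52 (Mrpl2) to -0.07 (Mrpl52) with a median of -1.41, against 0.30 over all genes. In 55 members HF75 was below HF20 at all 6 time points and in the other 20 at 5. In 28 members every HF75 array was below every HF20 array. The shares of all genes with these patterns are not given, so these counts describe the members only. From Week 3 to Week 18 the time-point medians were -2.05, -1.67, -0.75, -1.95, -1.92 and -0.45. The smallest differences were those of Weeks 9 and 18, where both arrays were dim. At Week 3 both were bright and the HF75 array was the one that went against its label.

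This count rested on few arrays. Without the array labelled HF75 Week 3, 17 members passed, all of them among the 56, with 9.14% of all genes passing and 4.41% passing and lower. The median was then -1.25 and all 75 estimates stayed below 0. Without HF20 Week 12 the count was 16, and without HF20 Week 6 or HF20 Week 15 it was 0. The shares of all genes without these HF20 arrays are not given. A fit that included brightness class as a covariate gave a median of -0.68, and no member passed. With that class and without HF75 Week 3, an alternative added after the data were seen, the median was -0.15, with 54 members lower and 21 higher, and none passed. On the dim arrays alone it was -0.36 and none passed. In each of these fits, with brightness class or on dim arrays alone, 0% of all genes passed.

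**Figure D4:**
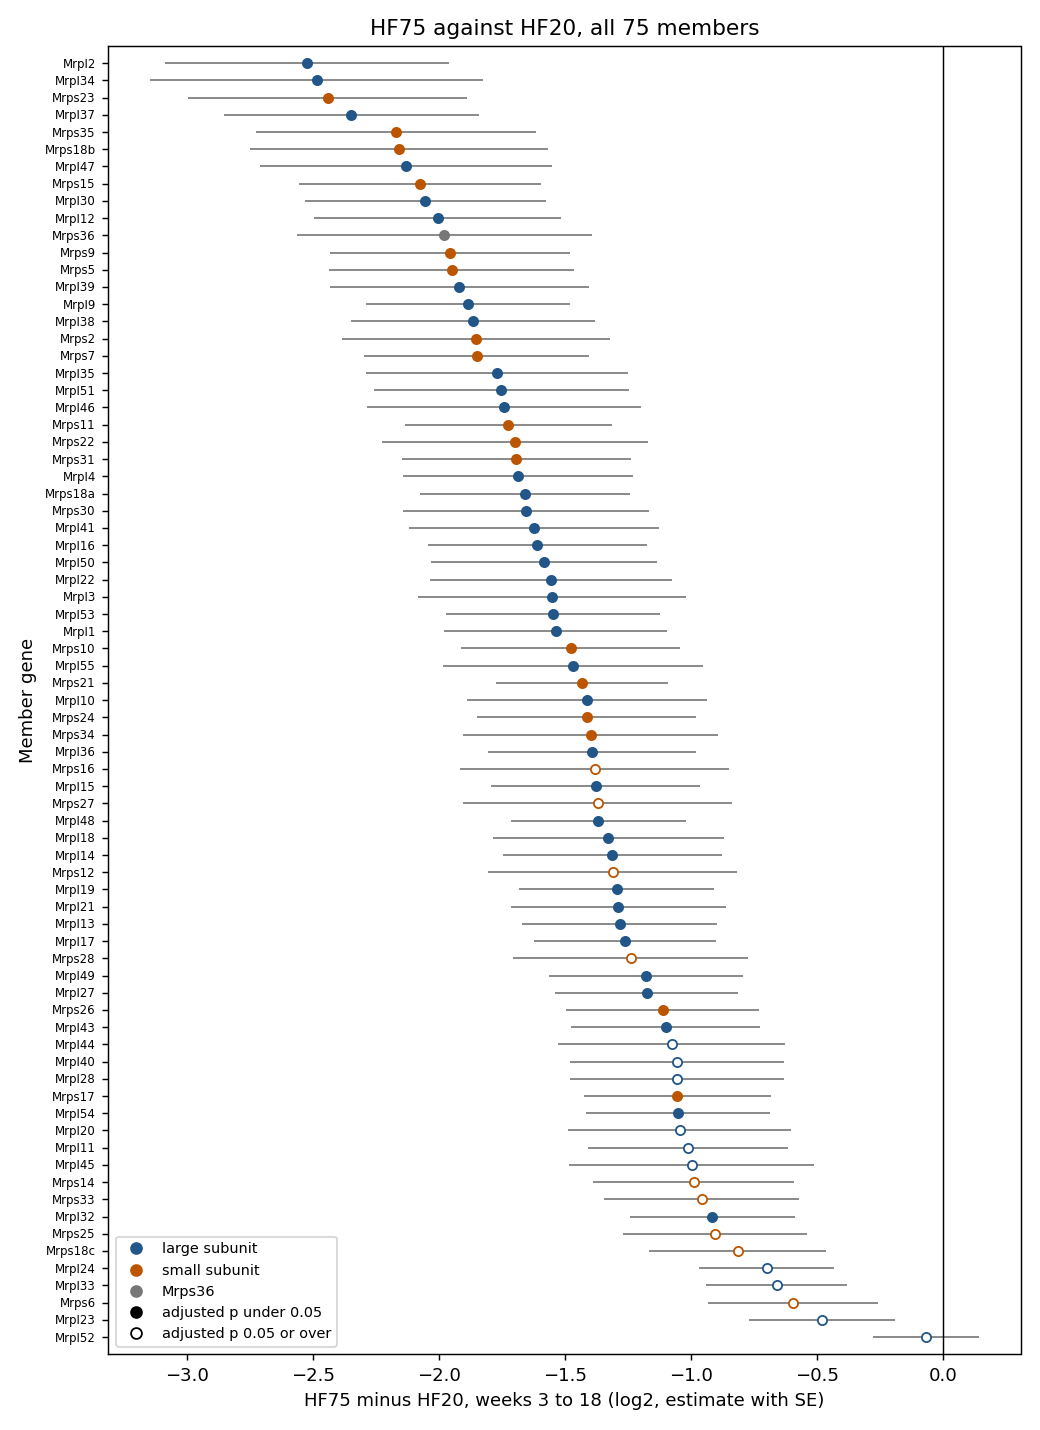
HF75 against HF20 estimate of each of the 75 members (log2, with bars for the standard error from limma), ordered by size and coloured by role. All lie below 0, from -2.52 (Mrpl2) to -0.07 (Mrpl52), and the 56 that passed the test are drawn filled.

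Mrpl2, the counterpart of bacterial L2 near the site where peptide bonds form, had the lowest estimate. At Weeks 3, 6, 9, 12, 15 and 18 it stood at 2.17, 3.25, 0.49, 2.62, 2.46 and 0.41 on HF20 and at -0.67, -0.63, 0.19, -0.81, -0.96 and -0.86 on HF75. Every HF75 array was below every HF20 array, and the HF20 arrays of Weeks 9 and 18, both dim, were well below the other 4. The estimate was -2.52 (SE 0.56, adjusted p = 0.015), 5.75-fold lower in HF75. Mrpl34 stood at 4.47, 4.54, 2.78, 5.09, 5.24 and 1.76 on HF20 and at 0.43, 1.32, 2.04, 1.94, 1.73 and 1.50 on HF75. Here Week 18 of HF20 lay inside the range of HF75. The estimate was -2.49 (SE 0.66, adjusted p = 0.018). Mrps23, specific to the mitochondrial small subunit, stood at 1.94, 1.78, 0.54, 2.31, 2.38 and 0.02 on HF20 and at -1.81, -0.77, -0.42, -0.78, -0.22 and -1.68 on HF75. The groups did not overlap, and the estimate was -2.44 (SE 0.55, adjusted p = 0.015). Mrpl37 stood at 1.11, 0.95, -0.19, 1.20, 1.54 and -0.78 on HF20 and at -1.93, -1.26, -1.44, -1.86, -1.36 and -2.40 on HF75, again without overlap. Its estimate was -2.35 (SE 0.51, adjusted p = 0.014). Mrps35, also specific to mitochondria, came next at -2.17 (SE 0.56, adjusted p = 0.016). Of these 5, Mrpl2, Mrpl37, Mrps23 and Mrps35 were among the 17 that passed without HF75 Week 3, and Mrpl34 was not.

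The members that passed with the smallest differences were Mrpl32 (-0.91), Mrpl54 (-1.05), Mrps17 (-1.05), Mrpl43 (-1.10) and Mrps26 (-1.11). Mrpl32, whose protein is cut to its mature form by an inner membrane protease, stood at 1.22, 0.77, 0.77, 2.44, 2.48 and 0.47 on HF20 and at 0.01, 0.47, 0.66, 0.66, 0.87 and -0.03 on HF75. The HF20 arrays of Weeks 12 and 15 were well above all the others. None of these 5 passed without HF75 Week 3. Mrpl52 stood apart from the rest of the members. It was at 3.58, 3.51, 3.72, 3.96, 3.62 and 3.51 on HF20 and at 3.54, 3.39, 3.70, 3.59, 3.88 and 3.40 on HF75, so the groups overlapped, and the estimate was -0.07 (SE 0.21, adjusted p = 0.817). It was also the member with the smallest gap between bright and dim arrays.

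By role, members of both subunits and of both origins passed. In the large subunit 38 of 48 members passed with a median of -1.40, and in the small subunit 17 of 26 with a median of -1.42. Of the proteins with a bacterial counterpart, 24 of 30 in the large subunit (median -1.39) and 10 of 16 in the small (-1.42) passed. Of those specific to mitochondria, 14 of 18 (-1.57) and 7 of 10 (-1.55) passed. Without HF75 Week 3 the large subunit had 9 of 48 (median -1.24) and the small subunit 8 of 26 (-1.21). Of the same 4 roles, 5 of 30, 6 of 16, 4 of 18 and 2 of 10 then passed. Differences between the roles were not tested. Mrps36, of the dehydrogenase complex, fell as well, by 1.98 on the log2 scale (SE 0.58, adjusted p = 0.022), and without HF75 Week 3 had -1.58 and did not pass (adjusted p = 0.065).

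Among members chosen for their role, Mrpl12 forms the stalk that recruits translation factors and is also known to bind the mitochondrial RNA polymerase. It stood at 4.81, 5.32, 4.40, 5.44, 5.16 and 3.41 on HF20 and at 2.07, 2.59, 3.38, 3.05, 2.82 and 2.61 on HF75. Every HF75 array was below every HF20 array, with Week 9 of HF75 close to Week 18 of HF20, and the estimate was -2.01 (SE 0.49, adjusted p = 0.015). Mrpl11, at the base of the same stalk, had -1.01 and did not pass (adjusted p = 0.062). Mrpl3, of the core of the large subunit, fell by 1.55 and Mrpl47, the counterpart of bacterial L29, by 2.13. Mrpl44, which carries a fold of the RNase III family, had -1.08 and did not pass (adjusted p = 0.076). In the small subunit Mrps22 fell by 1.70, Mrps24 by 1.41 and Mrps34 by 1.40. Mrps12, at the decoding centre, had -1.31 and Mrps28 -1.24, and neither passed (adjusted p = 0.053 and 0.052). Of the members in this paragraph Mrpl12 alone also passed without HF75 Week 3.

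The 3 relatives of bacterial S18 sit at different places in the mammalian ribosome and are separate genes. Mrps18a, in the large subunit, stood at 2.30, 3.22, 1.72, 3.28, 3.15 and 1.26 on HF20 and at 0.42, 0.67, 1.43, 0.89, 0.82 and 0.76 on HF75. Only Week 18 of HF20 was below the highest HF75 array, and the estimate was -1.66 (SE 0.42, adjusted p = 0.015). Mrps18b, in the small subunit, was dim, at -1.01, -0.87, -2.54, -0.02, -0.35 and -3.35 on HF20 and at -4.11, -3.20, -1.94, -3.44, -4.61 and -3.80 on HF75. The groups overlapped at Weeks 9 and 18 of HF20, both values not well above background, and the estimate was -2.16 (SE 0.59, adjusted p = 0.018). Mrps18c stood at 2.18, 1.39, 1.62, 2.62, 2.94 and 1.81 on HF20 and at 0.94, 1.19, 0.87, 1.70, 1.50 and 1.46 on HF75. Its estimate was -0.81 (SE 0.35) and it did not pass (adjusted p = 0.084). Mrps30, in the large subunit, fell by 1.65 (adjusted p = 0.022). Without HF75 Week 3 Mrps18a passed, and Mrps18b and Mrps30 did not.

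Among the 3 doses, 32 members passed a moderated F test, all of which also passed for HF75 against HF20, and 14% of all genes passed. At an unadjusted p under 0.05 were 62 members, beside 37.5% of all genes. Without the array labelled HF75 Week 3 no member passed, 50 were at an unadjusted p under 0.05, and 0% of all genes passed. Across all 5 groups no member passed, and 0.00462% of all genes did. At an unadjusted p under 0.05 were 47 members (35 without HF75 Week 3), beside 32.4% of all genes.

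The other genes of mitochondrial protein synthesis were described from lists written out by role, to be read against the 26.3% of all genes that passed for HF75 against HF20 and the 12.7% that passed and were lower. Of 7 mitoribosomal proteins under other names, 3 passed, all lower, with a median of -1.17. Of 17 genes tested for assembly of the ribosome and modification of its RNA, 11 passed, all lower, with a median of -1.62, among them the GTPase Mtg1 (-2.35) and the helicase Ddx28 (-2.11). Of 13 translation factors 10 passed, all lower (median -1.57), among them the elongation factors Gfm1 (-2.19) and Tufm (-1.94). Of 17 mitochondrial aminoacyl-tRNA synthetases, which load amino acids onto the transfer RNAs, 12 passed, all lower (median -1.33). Of 8 tested genes that copy or transcribe the mitochondrial genome 3 passed, all lower (median -0.97). Without HF75 Week 3, where 9.14% of all genes passed and 4.41% were lower, these counts were 0 of 7, 8 of 17, 6 of 13, 4 of 17 and 0 of 8, all lower. Mtg1, Ddx28 and Gfm1 were among those that then passed, and Tufm was not.

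The lists that follow are read against the same shares, 26.3% of all genes passed and 12.7% lower (9.14% and 4.41% without HF75 Week 3). The respiratory chain and ATP synthase genes of the nucleus, whose products join those made by the mitochondrial ribosome, gave 55 of 85 lower and none higher, with a median of -1.34 (16 lower and none higher without HF75 Week 3). The proteins of the cytosolic ribosome, which makes all other proteins, gave 4 higher and 3 lower of 81, with a median of 0.27 (none higher and 2 lower without it). Of 8 regulators of mitochondrial genes, the coactivators Ppargc1b (-4.02) and Ppargc1a (-3.23) and the receptor Esrra (-1.97) fell, and Yy1 rose by 0.59 (adjusted p = 0.046). Without HF75 Week 3 only Ppargc1b passed (-3.66, adjusted p = 0.043). Beside these stand the markers of the tissue: 3 of 9 brown adipocyte markers fell, Dio2 (-3.10), Adrb3 (-3.07) and Ebf2 (-1.93). The array labelled HF75 Week 3, with Dio2 at -4.29, is on the HF75 side of this comparison, and without it none of the 9 passed (Dio2 -2.53, Adrb3 -2.95, Ebf2 -2.03, with 4 of 9 at an unadjusted p under 0.05). Of 7 white adipocyte markers 3 fell and 1 rose, and none of 6 erythroid, 12 muscle or 9 lymphocyte markers passed, with 1 of 8 macrophage markers lower. Without HF75 Week 3, 2 white adipocyte markers and 1 macrophage marker were lower and none of these lists had a marker higher. With the mean of the brown markers in the model, an alternative added after the data were seen, the median of the members was -0.42 and none passed. In that fit 0% of all genes passed.

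Most members could be checked on 1 probe only: 47 had 1 probe, 20 had 2 and 8 had 3, and the probe with the highest mean was used. Mrpl41, of the large subunit, had an HFC against LFC estimate of -0.30 on its main probe and 0.71 on a probe well above background on 5 arrays only. For HF75 against HF20 these were -1.62 and 0.73. Of the 3 Mrpl1 probes the main one gave -1.54, another, well above background on 37 arrays, gave -1.41, and the dimmest, well above background on 27, gave 0.32. The 3 Mrpl44 probes all pointed lower, at -1.08, -1.59 and -2.50, and the 2 Mrps17 probes gave -1.05 and -1.17. Over the arrays the 2 Mrps17 probes correlated at 0.29 only, though both were well above background on all 38. The GC content of the members' probes was 35% to 55%, and its correlation across members with the gap between bright and dim arrays was -0.07.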

How the data were processed

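Brown adipose RNA was labelled with Cy3 and hybridised to custom mouse arrays with 1 colour, 38 in all, on 32 slides scanned on 12 days, per the labels and file headers. The deposited scanner files hold spot intensity from Feature Extraction 10.5.1.1 (9.1 in the submitters' processing notes), with the processed signal corrected for background. A second deposited file gives log2 values, made by the authors relative to the LFC array of each time point. It was used only as an alternative, because its 4 Week 15 columns correlated with the scanner files at -0.0046 to 0.0022 by probe name. No sample column was unmapped (0).

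Here, outlier spots were dropped, log2 of the processed signal had the 75th percentile of its array subtracted, spots of a probe were averaged, and the probe with the highest mean stood for a gene. Genes well above background on at least 6 arrays were tested with limma 3.58.1 (two-sided; R 4.3.3 and the data.table package, release 1.17.8) with the time point as a block (no block for the trend over days) and Benjamini-Hochberg adjustment over 21625 genes at 0.05. HFC against LFC used 20 arrays, the doses the 30 arrays of Weeks 3 to 18. Weeks count from day 14. Samples of the same time point deviated from their group means with correlations of -0.54 to 0.74 (median 0.18), and the block rests on the labels. Adjusted p-values are limma's. The steps were tested on simulated data. The number of arrays and their signal over background limit the precision.

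Named members are the 5 lowest and 5 highest estimates among those past the threshold (or the 3 lowest and 3 highest estimates where fewer passed), 15 fixed by role, and those whose probes differed by over 1. The text gives a part of these, and members with a shown promoter, or singled out for a probe, a missing value, saturation or likeness, were chosen after their values were seen. The members, lists and tests were chosen with earlier results of these data known. Alternatives were normexp background correction with offset 50, quantile normalization, the authors' own log2 values, other filters, other probe rules, slide as a random block, array weights, covariates for brightness and muscle markers, no block, and leaving out each array or time point. Brightness subsets and the brown marker covariate were added after the data were seen.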

Additional observations from a re-analysis of the deposited data

Results flagged for a closer look

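In all, 150 sets of values were examined: per group, 1 for each named member and 1 each for the medians of all members and of each subunit. Of these, 4 had an array far from the rest, where chance gives about 1 in 20. Mrpl34 at HFC Week 3 stood at 4.565, with the next highest of 9 HFC arrays at 2.777. Mrps35 at HFC Week 3 stood at 2.636 against 1.335. That array is one of the 2 bright HFC arrays, and the other, Day 10, has no value for either gene. Mrpl2 at HF75 Week 9 stood at 0.192, with the next at -0.634. Mrps36 at HF75 Week 3 stood at 0.268, with the next lowest at 1.643, on the array that went against its tissue label.

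The effects of HF75 and HF20 against the shared HFC arrays differed in 56 members by the test of the difference itself, which is the comparison of HF75 with HF20 in limma. The array labelled HF75 Week 3 and the brightness of the HF20 arrays moved with it, and their part in it was not tested beyond the fits named.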

How the results depend on the processing

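The count of 56 members lower in HF75 than in HF20 was 0 under normexp, under either brightness covariate (class or log2 of the 75th percentile), in the deposited table without Week 15, on dim arrays only, with the brightness class and without HF75 Week 3, and with the brown marker covariate. In each of these fits 0% of all genes passed. At an unadjusted p under 0.05 were 72 members under normexp, 28 with the class and 40 with log2 of the 75th percentile. There were 66 in the deposited table, 5 on dim arrays, 6 with the class and without HF75 Week 3, and 11 with the brown markers. In the main fit 71 members were, beside 42.4% of all genes. The shares of all genes at this unadjusted bound in the alternative fits are not given, so these counts describe the members only. Leaving out 1 array gave a count past the test of 0 to 71, and 1 time point 0 to 67 (0 without Week 6, 12 or 15). The shares of all genes beside these ranges are not given. The cause was not tested. The median of -1.41 was -1.31 under quantile normalization (74 lower) and -1.62 under normexp (75 lower), while the median of all genes was 0.07 and 0.50. It was -0.68 with the brightness class, -0.36 on dim arrays, -0.42 with the brown markers and -0.15 with the brightness class and without HF75 Week 3, where 21 of 75 members turned to higher, among the named ones Mrps26 (0.041), Mrps17 (0.056), Mrpl11 (0.16), Mrpl44 (0.26), Mrps12 (0.0093), Mrps18c (0.13), Mrps28 (0.13) and Mrps34 (0.10). With 1 array left out it was -1.65 to -1.20 and with 1 time point -1.68 to -1.30.

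Among the doses the count of 32 was 0 under normexp, no filter, both brightness covariates, the muscle and brown marker covariates, the deposited table without Week 15, dim arrays only, and the brightness class without HF75 Week 3. It was 53 with slide as a random block and 65 with array weights, 0 to 55 with 1 array and 0 to 58 with 1 time point left out. Without the replicate block it was 17, and HF75 against HF20 was 50, beside 19% of all genes. The shares of all genes for the fits among the doses in this paragraph are not given.

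Comparisons at 0 gave calls in places. HF20 against HFC gave 67 with array weights, where 23.4% of all genes passed. It gave 0 to 36 with 1 array left out (36 without HFC Week 3, 26 without HF20 Week 9) and 0 to 27 with 1 time point. HF20 against HF5 gave 18 where every array had to be above background, beside 22.7% of all genes. It gave 47 with the slide block and 55 with array weights, beside 31% of all genes each. With 1 array left out it gave 0 to 43 (43 without HF20 Week 9) and with 1 time point 0 to 44. The median of HF20 against HF5 was -0.20 with the brightness class and without HF75 Week 3. All 5 groups gave 27 with the slide block, 39 with array weights, 0 to 28 with 1 array and 0 to 8 with 1 time point. The shares of all genes for all 5 groups, and for fits with an array or time point left out, are not given. The trend over days gave 1 with array weights, the brightness class or the brown markers, where 6.62%, 7.44% and 3.67% of all genes passed. Its median was 0.21 with log2 of the 75th percentile. Diet by day gave 1 with the brightness class, where 2.97% of all genes passed. It had medians of 0.45 with log2 of the 75th percentile and -1.28 with the brown markers. HF75 against HF5 had a median of 0.36 with the brown markers. The median of HFC against LFC was 0.08 with the brightness class and 0.17 with log2 of the 75th percentile.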
